A study of Mus musculus with 12 samples.

Results

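The genes described are those of the major histocompatibility complex (MHC, called H2 in the mouse) and of the antigen processing machinery. They were taken by symbol: every gene whose symbol begins with H2-, which gave 23, and 8 others that supply, load or regulate MHC molecules (Psmb8, Psmb9, Tap1, Tap2, Tapbp, B2m, Cd74 and Ciita). The list was set with earlier results of these data known, so the counts of its members below are descriptive. The genes number 31 in all. These are among the 18193 genes named on the array and are read by 62 of its 45037 probe sets that are not controls. On chromosome 17 lie 28 of the 31, while B2m is on chromosome 2, Ciita on chromosome 16 and Cd74 on chromosome 18. A further 15 probe sets carry several gene symbols with an H2- gene among them, and these are given by probe set name only.

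Tregs, the regulatory T cells that restrain other immune cells, were profiled on 12 Affymetrix expression arrays. They were sorted by flow cytometry from mice that had received no treatment and used without culture. The 4 genotypes had 3 arrays each: wild type (WT), knockout of Ebi3 (Ebi3_KO), knockout of Il10 (Il10_KO) and knockout of both genes (DKO). The product of Ebi3 is a chain found in IL-27 and in IL-35, and that of Il10 is IL-10. The labels assign each array to batch 1, 2 or 3, with every genotype once in each batch, and give no strain, age, sex, deleted part of a gene or origin of a replicate. A replicate may therefore be technical, and p-values measure only the spread between these arrays.

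MHC class I molecules sit on nearly every nucleated cell and show peptides from the cell's own proteins to CD8 T cells. Proteasome subunits that interferon induces (Psmb8, Psmb9 and Psmb10) cut the proteins, the TAP transporter carries the peptides into the endoplasmic reticulum, tapasin (Tapbp) helps to load them, and beta-2-microglobulin (B2m) is the light chain of the complex. Class II molecules show peptides from outside the cell to CD4 T cells, and in the mouse they belong to B cells, dendritic cells and macrophages, with little class II RNA made by mouse T cells. Their invariant chain is Cd74, their peptide editors are H2-DM and H2-O, and their transcription is switched on by Ciita. Ebi3 and most of the H2 genes share chromosome 17.

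The stretches upstream of the genes that the results turn on are shown because the promoters of class I and class II genes are known for different control elements. They come from the RefSeq promoter table for GRCm38.p6 and are printed 5′ to 3′ on each gene's own strand, up to the base before the start of the gene. Capitals mark every match to a motif on either strand. The motifs searched were ATTGG and its reverse CCAAT (the CCAAT box), the core of an interferon response element, GCAACT (the core of the class II X1 box, AGTTGC in reverse), the interferon element of class I promoters, GGGGATTCC (the NF-kB site of the class I enhancer) and TGACGTCA (the cyclic AMP response element).
H2-M3, chr17:37269984-37270233, plus strand: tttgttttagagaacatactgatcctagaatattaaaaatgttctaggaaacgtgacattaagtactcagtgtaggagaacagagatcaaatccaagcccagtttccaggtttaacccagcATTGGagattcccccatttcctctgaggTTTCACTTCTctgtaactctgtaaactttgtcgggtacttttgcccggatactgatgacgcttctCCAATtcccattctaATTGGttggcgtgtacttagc
Psmb9-Tap1, the stretch between the 2 opposite start sites, chr17:34187331-34187555, minus strand as Psmb9 is read: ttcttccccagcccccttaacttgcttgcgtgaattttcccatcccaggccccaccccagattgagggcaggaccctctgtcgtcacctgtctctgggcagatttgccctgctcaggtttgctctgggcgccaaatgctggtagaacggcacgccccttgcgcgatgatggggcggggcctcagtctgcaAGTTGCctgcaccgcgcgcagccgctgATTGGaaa
H2-K1, chr17:34000348-34000597, minus strand: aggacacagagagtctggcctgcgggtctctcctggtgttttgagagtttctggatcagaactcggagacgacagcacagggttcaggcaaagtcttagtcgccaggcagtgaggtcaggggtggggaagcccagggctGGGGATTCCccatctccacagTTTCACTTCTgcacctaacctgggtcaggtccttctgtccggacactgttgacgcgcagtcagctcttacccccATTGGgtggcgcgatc
H2-Aa, chr17:34287824-34288073, minus strand: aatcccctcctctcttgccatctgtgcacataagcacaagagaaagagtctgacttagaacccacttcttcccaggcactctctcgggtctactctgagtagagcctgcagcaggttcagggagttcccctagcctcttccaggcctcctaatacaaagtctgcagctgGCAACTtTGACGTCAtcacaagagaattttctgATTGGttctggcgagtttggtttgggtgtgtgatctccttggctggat
H2-Eb1, chr17:34305617-34305866, plus strand: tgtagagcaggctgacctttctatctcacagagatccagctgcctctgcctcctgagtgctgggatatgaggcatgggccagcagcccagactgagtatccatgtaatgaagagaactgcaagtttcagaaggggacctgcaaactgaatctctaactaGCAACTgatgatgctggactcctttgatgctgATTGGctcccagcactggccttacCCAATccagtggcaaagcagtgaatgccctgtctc

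The interferon element stood in the stretches of H2-M3 and H2-K1, upstream of the last CCAAT box, and was found in 0.131% of the 32851 promoters of the whole table. GGGGATTCC stood in that of H2-K1 (0.213% of all promoters). GCAACT was in H2-Aa and H2-Eb1 and, in reverse, in the Psmb9-Tap1 stretch (9.01%). TGACGTCA stood beside it in H2-Aa (1.55%). All 5 stretches held ATTGG or CCAAT, 3 times in H2-M3, a motif present in 33.8% of all promoters. The core of the interferon response element was in none of the 5 and in 2.98% of all promoters. Of the 31 genes, 21 had an entry in the table, 18 of them with the CCAAT box and 4 with the interferon element of class I promoters. The motifs were chosen after the sequences had been read, none of the matches overlapped another, and a match describes letters and not binding.

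The deposited values are MAS5 signals on a log scale with an offset of 20, so that a difference below is on the log2(signal + 20) scale and understates the change of dim probe sets. Of the 62 probe sets, 53 (30 genes) passed the filter on low signal and were tested among 31235. The other 9 never exceeded a signal of 89.6, and H2-D4 was the gene left with none. The Ebi3 probe set read 1062.5 to 2057.3 on the 6 arrays with the gene and 3 to 72.5 on the 6 arrays without it, a difference of -5.10 ± 0.317 (SE, limma, adjusted p = 3.6e-05). The Il10 probe set did not follow its labels. It read 184.5 to 2939.8 in WT and Ebi3_KO and 1016.7 to 2639.6 in Il10_KO and DKO, and since the labels do not say which part of the gene was removed, it checks nothing, and the Il10 genotypes below are those of the labels. Markers of Tregs and CD4 T cells were high on all arrays, and Foxp3, which defines Tregs, read 4945.3 to 7955. The 7 Treg and CD4 markers summed to a signal of 54854 to 62803.6 in batches 1 and 2 but to 37332.5 to 44270 in batch 3, where the 9 myeloid markers summed to 32490.8 to 56600.2 against 5714.5 to 8567 in the others.

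Without Ebi3 the mean signals of H2-M3, of Psmb9 and, by smaller amounts, of other class I pathway genes were lower, but none of the member genes passed the test at an adjusted p under 0.05. The comparison used is the Ebi3 average difference, the mean of Ebi3_KO and DKO minus the mean of WT and Il10_KO. In it 0 of the 53 member probe sets passed, with and without batch in the limma model, against 1 probe set (0.0032%) in the whole table without batch, which was Ebi3 itself, and 2 (0.0064%) with it. At an unadjusted p under 0.05 the members had 1 probe set without batch (1.38% of all tested) and 8 with batch, 15.1% against 4.54%. All 8 were lower without Ebi3, where 2.57% of all tested probe sets met the same limit below 0, and they belong to H2-M3, Psmb9, Psmb8, Tap1, B2m, H2-K1 and H2-D1.

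Within a batch, 2 pairs of arrays differ in Ebi3: Ebi3_KO with WT and DKO with Il10_KO, which gives 6 differences a probe set. All 6 were below 0 for 10 of the 53 member probe sets (18.9%), against 2.26% of all tested probe sets and 6.13% of the 1125 other tested probe sets of chromosome 17. All 6 were above 0 for 0 of the 53, against 1.51% of all tested probe sets. The 10 belong to 8 genes: H2-M3, Psmb9, Psmb8, Tap2, B2m, H2-K1, H2-D1 with 3 probe sets, and H2-DMa. All but the B2m probe set lie on chromosome 17, and the 4 of H2-K1 and H2-D1 are of a type (_x_at) whose probes can bind the RNA of similar genes, so that they are not independent of each other. For none of the 53 did the 6 arrays without Ebi3 lie wholly apart from the 6 with it, which 0.102% of all tested probe sets did. Markers of B cells and of CD8 T and NK cells were mostly below 0 too. Of 11 B cell genes without Ighm, 10 were below 0 in the Ebi3 average (median -0.297), 9 in Ebi3_KO against WT and 10 in DKO against Il10_KO. Ighm, the brightest of the B cell list, stood at -0.04 ± 0.172 in the average. Of 7 genes of CD8 T and NK cells, 6 were below 0 in the average (median -0.311) and 5 in each comparison. The 6 neutrophil genes ran in opposite directions: all 6 were below 0 in Ebi3_KO against WT (median -1.27) and all 6 above 0 in DKO against Il10_KO (median 0.511). Of the dendritic cell genes 3 of 7 were above 0 in the average (median -0.0756) and of the plasma cell genes 2 of 5 (median -0.0411). Of the myeloid genes 4 of 8 were above 0 (median -0.0028) and of the Treg and CD4 genes 4 of 7 (median 0.0470). Summed over each list, the signals spanned 3136.2 to 16245.9 with Ebi3 and 2442.1 to 10852.4 without it for the B cell genes, 1535.9 to 5934.5 and 1506.3 to 4927.8 for the CD8 T and NK cell genes, and 1570.2 to 13376.1 and 1148.6 to 15111.4 for the neutrophil genes, so that the groups overlapped. None of these markers passed, and their part in the class I values was not tested.

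**Figure D1:**
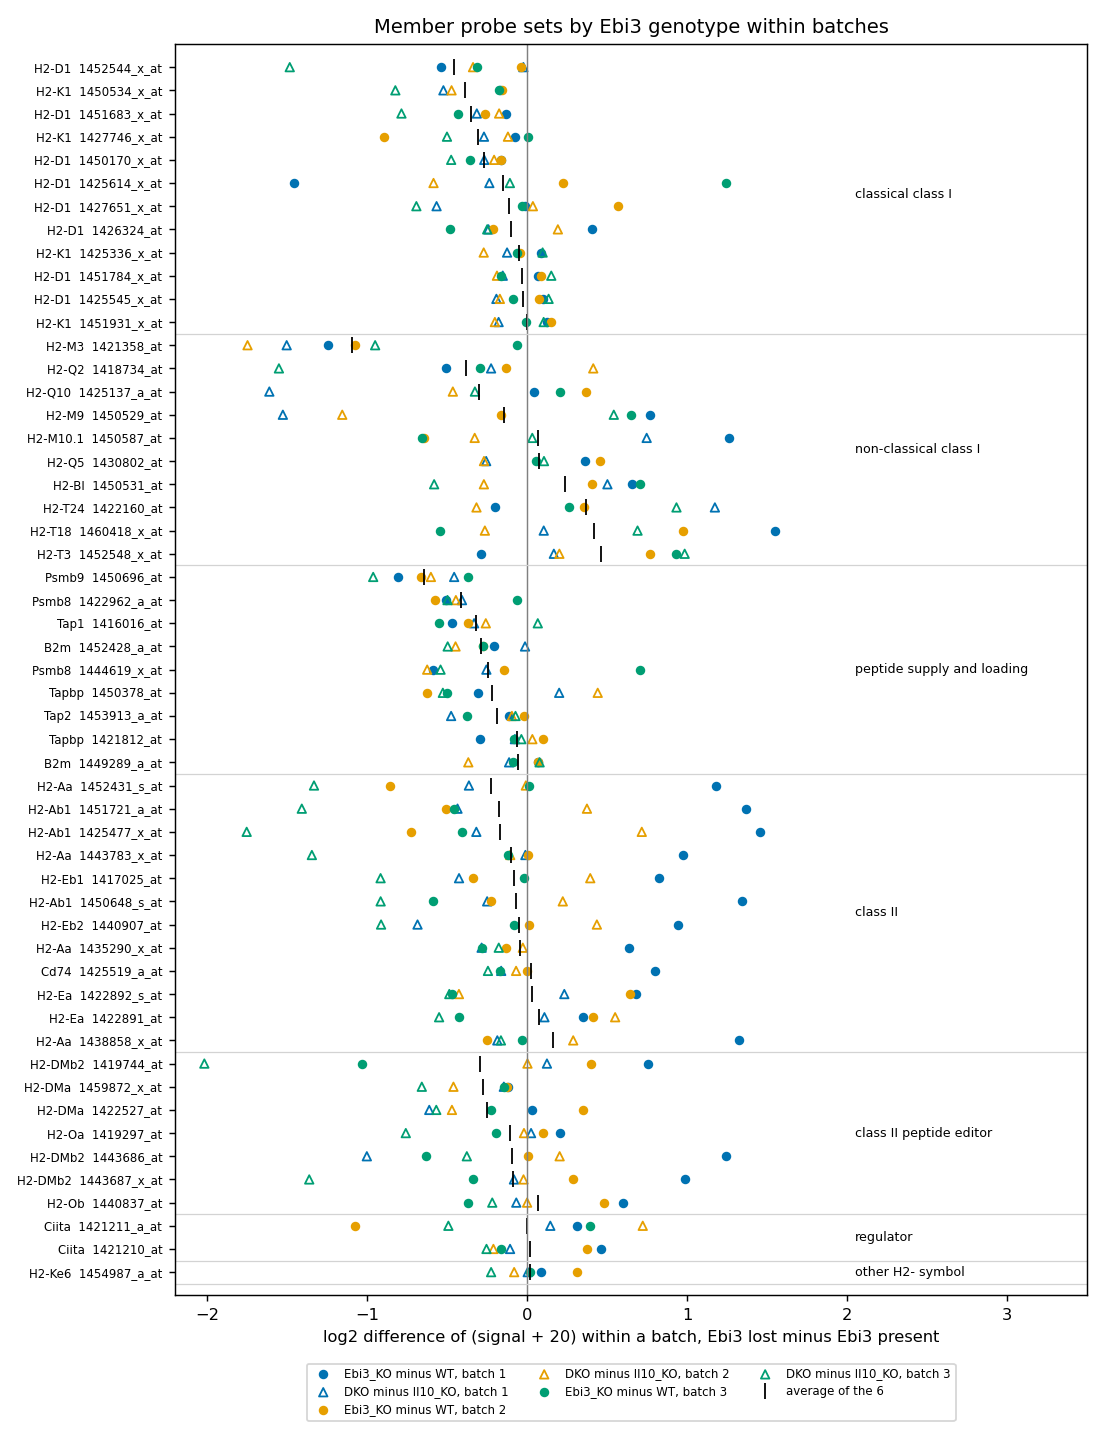
Each line is a tested probe set of the member genes, grouped by role, and the horizontal axis is the log2 difference of (signal + 20) between an array without and an array with Ebi3 of the same batch. Filled circles are Ebi3_KO minus WT, open triangles are DKO minus Il10_KO, colours are batches and the black bar is the mean of the 6; H2-M3 has the lowest mean (-1.10), the peptide supply probe sets all have means below 0, and the class II probe sets spread to both sides.

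H2-M3 encodes a non-classical class I molecule that presents N-formylated peptides, such as those of bacteria and mitochondria. In batches 1, 2 and 3 its probe set read 3996, 2204.7 and 4857.5 in WT and 1672, 1037.3 and 4643.5 in Ebi3_KO. It read 3765, 4296 and 4935.6 in Il10_KO and 1316.1, 1266 and 2545.8 in DKO. The 3 DKO arrays lay below all 3 Il10_KO arrays, while the Ebi3_KO array of batch 3 stood among the WT arrays and apart from the other 2 of its genotype.

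The Ebi3 average difference of H2-M3 was -1.10 ± 0.337 (SE, limma, adjusted p = 1.00 without batch). When batch was added to the model the error was 0.190 and the adjusted p 0.102. The 6 within-batch differences were -1.25, -1.07 and -0.06 for Ebi3_KO against WT and -1.50, -1.75 and -0.95 for DKO against Il10_KO. Averaged over batches these were -0.79 ± 0.477 and -1.40 ± 0.477, and both missed the threshold. Array 3 of Ebi3_KO decided the call. Without it and with batch in the model, H2-M3 stood at -1.29 (limma, adjusted p = 0.00753), and over all 12 omissions with batch its adjusted p ranged from 0.00753 to 0.386.

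Psmb9 encodes a catalytic subunit of the immunoproteasome, the form of the proteasome that interferon gamma induces. Its probe set read 7023.5, 2862.7 and 5748.4 in WT and 4005.8, 1799.4 and 4443.4 in Ebi3_KO. It read 5559.9, 2407.1 and 6795.3 in Il10_KO and 4047.6, 1579.8 and 3479.1 in DKO. Batch 2 was the lowest of the batches in every genotype, and the ranges of all 4 genotypes overlapped, but in every batch the array without Ebi3 lay below its partner. The average difference was -0.64 ± 0.352 (SE, limma, adjusted p = 1.00). When batch was added to the model the error was 0.0975 and the adjusted p 0.0586. The within-batch differences were -0.81, -0.66 and -0.37 for Ebi3_KO and -0.46, -0.60 and -0.96 for DKO. Leaving out array 3 of Ebi3_KO with batch in the model gave -0.67 and an adjusted p of 0.0496 (limma), which passes. It was the only 1 of the omissions with batch to pass, and over them all the adjusted p ranged from 0.0496 to 0.338.

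The other peptide supply and loading genes had differences of the same sign. All 9 of their tested probe sets (6 genes, Psmb9 included) were below 0 in the Ebi3 average, as were 51.9% of all tested probe sets, with a median of -0.242 against -0.00825. Psmb8, another catalytic subunit of the immunoproteasome, read 9347.8, 4045.9 and 5336.2 in WT on the brighter of its probe sets, 6584.5, 2706.3 and 5095.3 in Ebi3_KO, 7686.6, 4646.9 and 8197 in Il10_KO and 5791.7, 3407.7 and 5800.7 in DKO. Its genotypes overlapped and its difference was -0.42 ± 0.272 (limma, adjusted p = 1.00, and 0.835 with batch). The dimmer Psmb8 probe set stood at -0.24 ± 0.202 with 5 of 6 differences below 0. These values did not pass the test.

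Tap1 and Tap2 encode the subunits of the peptide transporter, and Tap1 and Psmb9 start from opposite ends of the stretch printed above. Tap1 read 7141, 4645.2 and 7443.7 in WT, 5159, 3587.3 and 5064.5 in Ebi3_KO, 6117.9, 3477.4 and 6327 in Il10_KO and 4857.7, 2904 and 6625.9 in DKO. All pairs but that of DKO and Il10_KO in batch 3 were lower without Ebi3, with an average of -0.32 ± 0.231 (limma, adjusted p = 0.991 with batch). The other 3 probe sets of Tap1 stayed under the filter. Tap2 differed by less, -0.19 ± 0.146, in the same direction in 6 of 6 pairs (limma, adjusted p = 0.994 with batch). Tapbp stood at -0.06 ± 0.133 and -0.22 ± 0.337 on its 2 probe sets, each with 4 of 6 differences below 0.

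B2m shows how probe sets of a gene can disagree. Its brighter one read 29208.5, 30681.6 and 29131.5 in WT, 30674.8, 32193.8 and 27420.1 in Ebi3_KO, 29872.1, 29095.6 and 25555.8 in Il10_KO and 27623.1, 22546.5 and 26971.8 in DKO, with an average difference of -0.06 ± 0.0935 and 3 of 6 pairs below 0. The other read 6767.8 to 21548.5 and had an average of -0.29 ± 0.292, with 6 of 6 pairs below 0, but stood at -0.10 without array 2 of DKO in the fit without batch. Neither passed.

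**Figure D2:**
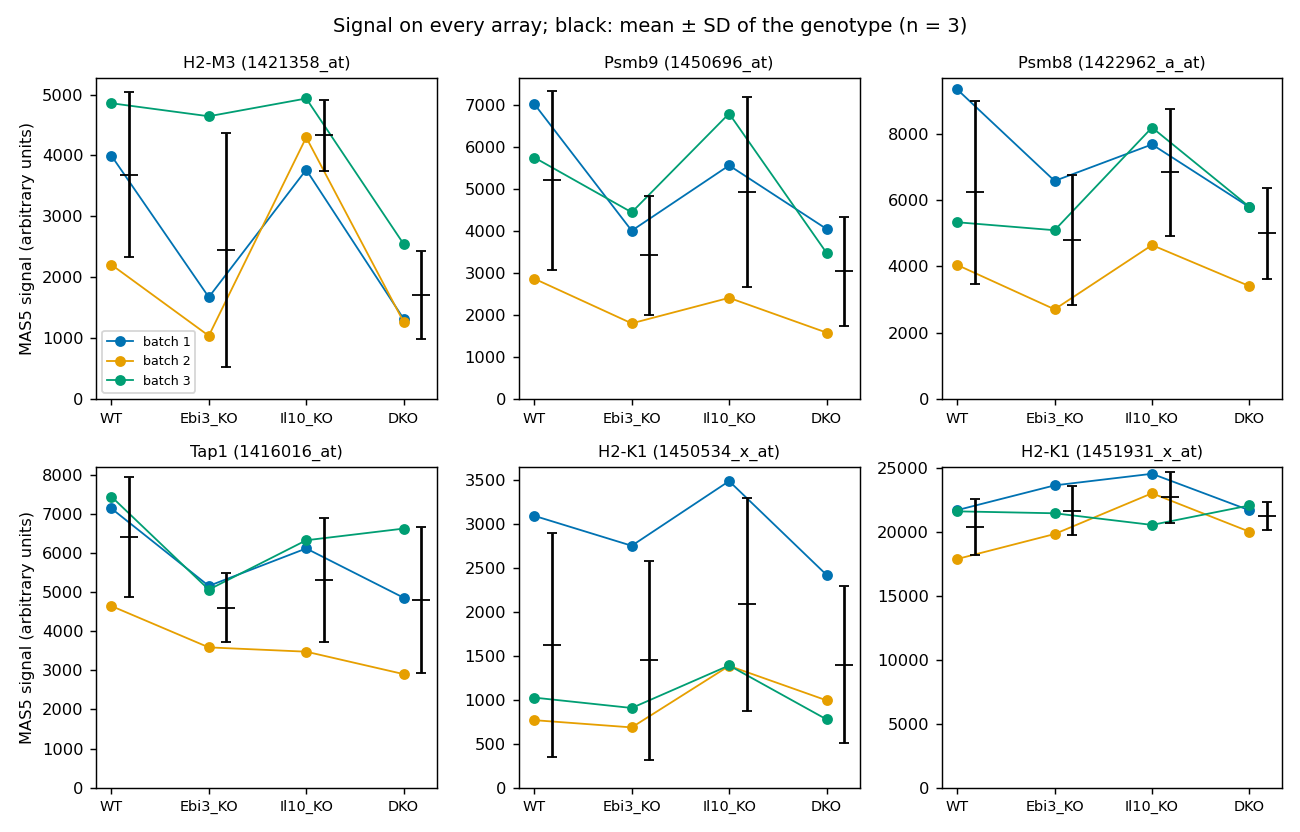
MAS5 signal (arbitrary units, linear axis from 0) of 6 probe sets on every array, with batches joined by coloured lines and the mean ± SD of the 3 arrays of a genotype in black. H2-M3, Psmb9 and Psmb8 step down from WT to Ebi3_KO and from Il10_KO to DKO in every batch, H2-M3 least from WT to Ebi3_KO in batch 3, while H2-K1 on 1451931_x_at stays at about the same level in all genotypes.

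The classical class I genes H2-K1 and H2-D1, whose products present peptides to most CD8 T cells, showed the same split by brightness. All 12 of their tested probe sets were below 0 in the Ebi3 average, with a median of -0.135. The 4 with a mean signal over 20000 differed by only -0.0024 to -0.053. On the brightest of these, H2-K1 on 1425336_x_at, WT read 28316, 24480 and 27415.4, Ebi3_KO 30010.5, 23770 and 26264.6, Il10_KO 31190.5, 31070.6 and 26344.9, and DKO 28591.1, 25737.5 and 28171.1. These levels overlapped throughout. The 5 with a mean between 1000 and 20000 differed by -0.10 to -0.39.

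Among those 5, H2-K1 on 1450534_x_at read 3092.9, 767.7 and 1024.3 in WT, 2752.4, 685.3 and 906.3 in Ebi3_KO, 3488.2, 1385.6 and 1390.3 in Il10_KO and 2421.1, 993.2 and 777 in DKO. Batch 1 was the highest in every genotype and the difference, -0.39 ± 0.449, was below 0 in 6 of 6 pairs (limma, adjusted p = 0.994 with batch). Without array 1 of WT, and without batch, it was -0.09. H2-D1 on 1451683_x_at stood at -0.35 ± 0.230 and on 1450170_x_at at -0.27 ± 0.239, also with 6 of 6. The remaining 3 were dim, with means of 39.3 to 61.0. The largest difference of the class, H2-D1 on 1452544_x_at (-0.46 ± 0.422), was among these dim ones: it read 100.3, 51.6 and 19.3 in WT, 62.7, 49.8 and 11.6 in Ebi3_KO, 53.7, 9.2 and 52.4 in Il10_KO and 52.5, 3.1 and 5.9 in DKO. Signals this low overlapped between all genotypes.

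The remaining non-classical class I genes were of mixed direction. Of the 10 probe sets tested in this class 4, H2-M3 included, were below 0 in the Ebi3 average and the median was 0.0716, while 6 of the 10 were below 0 in DKO against Il10_KO. Apart from H2-M3 and H2-Q5 all had mean signals under 200. H2-Q5 read 938.3 to 2334.7 over the 12 arrays, with a difference of 0.08 ± 0.208 and 2 of 6 pairs below 0. H2-Q10, a class I protein known as a secreted product of the liver, stood at 0.20 in Ebi3_KO against WT and at -0.80 in DKO against Il10_KO, with signals of 74.9 to 286.9. H2-T3, a thymus leukaemia antigen, had the highest Ebi3 average of all members on its tested probe set (0.46 ± 0.287), with signals of 27.2 to 115.6. None of these passed.

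Of the 15 probe sets that carry several symbols, 12 carry H2- symbols alone and 3 also a symbol of another kind. All 15 passed the filter, and all 6 differences were below 0 for 0 of them, against 2.26% of all tested probe sets, and above 0 for 2, against 1.51%. Probe set 1419658_at read 977.9, 1322.2 and 1077.9 in WT, 1779.8, 3034.5 and 1262.6 in Ebi3_KO, 1177.2, 1739.2 and 1184.7 in Il10_KO and 1545.9, 3358.4 and 2647.2 in DKO, and was higher without Ebi3 by 0.79 ± 0.245 (limma, adjusted p = 0.145 with batch). Probe set 1447260_at, which is among the 3, was higher by 1.08 (limma, adjusted p = 0.248 with batch), between 29.1 and 172.4. Neither passed, and which of their genes they read cannot be told apart.

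The 2 comparisons that make up the Ebi3 average share no array, and their values are given side by side. In DKO against Il10_KO 46 of the 53 were below 0, with a median of -0.297, where 48.7% of all tested probe sets were below 0. In Ebi3_KO against WT 21 of the 53 were below 0 and the median was 0.0506, where 54.3% of all were. By batch, the members below 0 numbered 20, 28 and 41 in Ebi3_KO against WT and 41, 37 and 41 in DKO against Il10_KO, so that the counts were equal in batch 3. Peptide supply and classical class I probe sets were below 0 in both for 7 of 9 and 8 of 12, against 27.1% of all tested probe sets, and class II for 0 of 12. The difference between the comparisons, the interaction of both knockouts, passed for 0 member probe sets and 0 of all (limma, with and without batch). At an unadjusted p under 0.05 it had 1 member probe set, against 1.28% of all without batch and 3.94% with it. The smallest adjusted p of a member was 0.812 in Ebi3_KO against WT (Psmb9) and 0.403 in DKO against Il10_KO (H2-M3), both with batch.

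**Figure D3:**
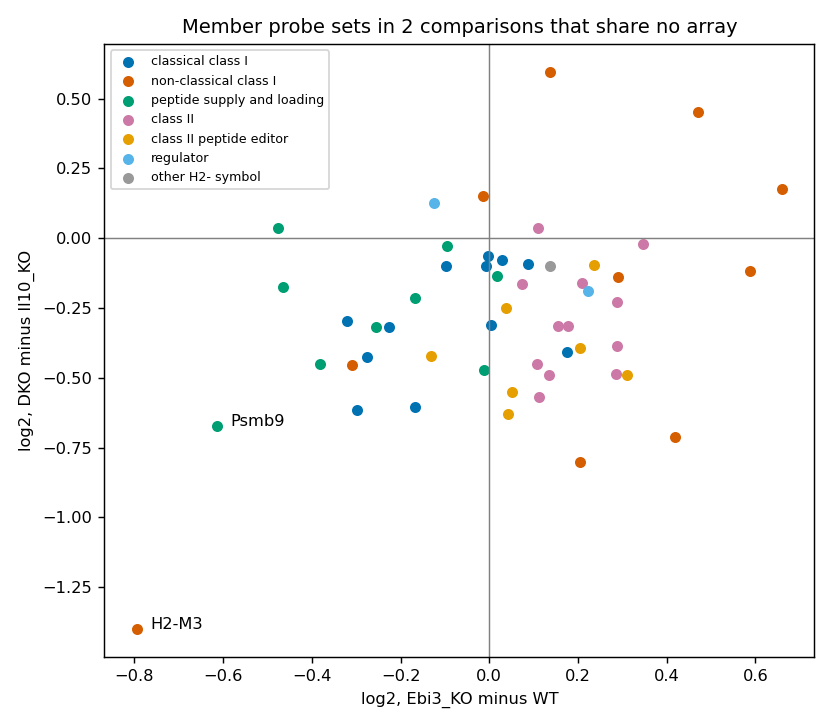
Each point is a tested member probe set, coloured by role, with the log2 difference of Ebi3_KO minus WT across and of DKO minus Il10_KO upward. H2-M3 (-0.79 and -1.40) and Psmb9 (-0.61 and -0.67) lie farthest to the left, and all class II points lie to the right of 0. These are averages over batches: in Ebi3_KO minus WT the class II medians were 0.956, -0.177 and -0.225 in batches 1, 2 and 3. The class II probe sets above 0 numbered 12, 4 and 1.

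The genotype of Ebi3 is itself a difference of chromosome 17, so the order of the genes along it was read from the RefSeq gene table. Between Ebi3 and H2-M3 lie 195 other protein-coding genes, between Ebi3 and H2-D1 273, between Ebi3 and Psmb9 344 and between Ebi3 and H2-K1 355. Other chromosome 17 probe sets had a median of -0.0279 in the Ebi3 average, the 48 member probe sets of the chromosome -0.104 and the 5 member probe sets elsewhere 0.00046. Whether the knockouts differ from WT in the chromosome around Ebi3 cannot be told apart from the loss of the gene in these labels.

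**Figure D4:**
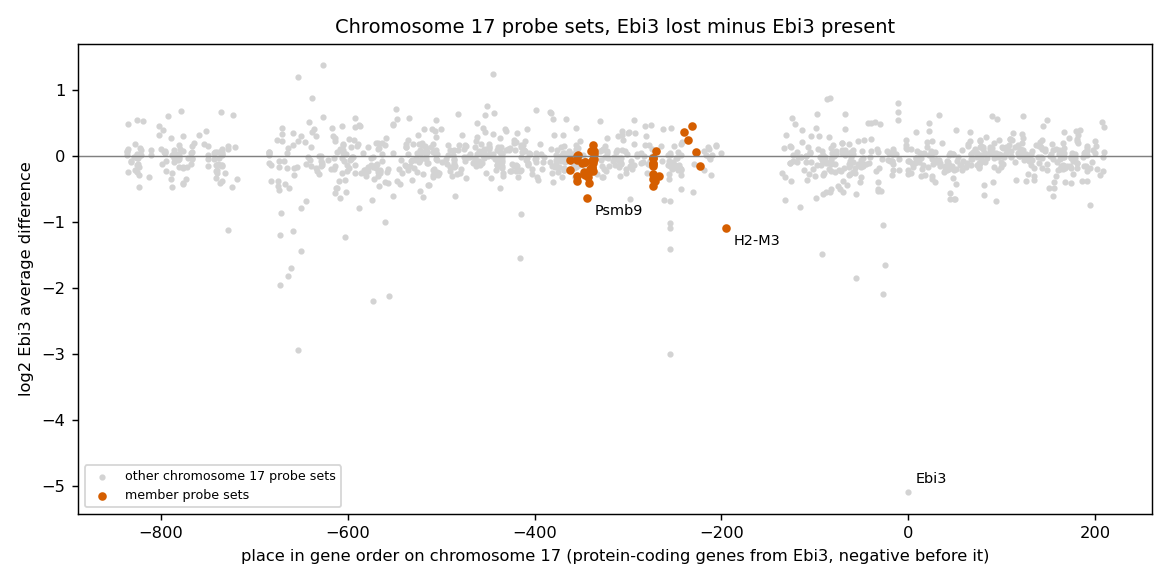
Each point is a tested chromosome 17 probe set, placed by the number of protein-coding genes between its gene and Ebi3 (negative for genes that come before it), with the log2 Ebi3 average difference upward and the member genes in orange. Ebi3 is at -5.10 and H2-M3 and Psmb9 are the lowest members, while other genes of the chromosome reach values further from 0 than theirs at several places.

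Other genes of antigen processing were taken from a list of 35, of which 32 had a probe set; 59 probe sets were tested and 0 passed in any comparison with limma, with or without batch. In the Ebi3 average 40 of the 59 were below 0 (51.9% of all tested) with a median of -0.0600, and 5 had an unadjusted p under 0.05 with batch (4.54% of all). All 6 within-batch differences were below 0 for 4 (2.26% of all) and above 0 for 0 (1.51%). The 4 were Psmb10, the remaining catalytic subunit of the immunoproteasome (chromosome 8, -0.50 ± 0.280), Tapbpl, a relative of tapasin that edits peptides (-0.41 ± 0.142), Hsp90b1, a chaperone of the endoplasmic reticulum (-0.38 ± 0.202), and Nfya, a subunit of the factor that binds the CCAAT box (chromosome 17, -0.52 ± 0.269). Psmb10 read 5779.1, 2419.7 and 3082.2 in WT, 3916, 1535.1 and 2462.4 in Ebi3_KO, 4216.1, 2725.6 and 4628.6 in Il10_KO and 3138.7, 1812.8 and 3312.1 in DKO. It was lowest in batch 2 in every genotype, as Psmb9 was. Nlrc5, the activator of class I genes, stood at -0.11 ± 0.122 with 5 of 6 below 0, and Irf1, a factor that interferon induces, at -0.03 ± 0.151 with 4 of 6.

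The class II genes varied mostly with the batch. Cd74, the invariant chain, read 1629.7, 1840.1 and 6336.6 in WT, 2843.9, 1839.3 and 5635.5 in Ebi3_KO, 3807.3, 2118.2 and 10797.9 in Il10_KO and 3400.2, 2018.2 and 9109.1 in DKO. All 4 arrays of batch 3 were above the other 8. Of the 9 class II probe sets with a mean signal over 400, all 9 had their highest signal in batch 3, 8 of them on the Il10_KO array, and in 5 of the 9 the whole of batch 3 lay above the rest. The median SD within a genotype was 1.01 for the 12 class II probe sets, against 0.468 for all tested.

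By Ebi3 genotype the class II probe sets had a median of -0.0588, with 8 of 12 below 0, and none had all 6 pairs in 1 direction. H2-Aa, the alpha chain of I-A, gave the largest of these on 1452431_s_at: it read 482.9, 315.4 and 824.5 in WT, 1121.3, 165.3 and 831.5 in Ebi3_KO, 1602.5, 303.7 and 4221.1 in Il10_KO and 1240.9, 301.9 and 1665.1 in DKO (-0.23 ± 0.652). On its brightest probe set it read 4027.7, 5039.1 and 17505.6 in WT, 6271.6, 4601.7 and 14391.5 in Ebi3_KO, 8038.5, 7637.9 and 16629.4 in Il10_KO and 6596.4, 7495 and 14702.9 in DKO. In batch 1 all 12 class II probe sets were above WT in Ebi3_KO (median 0.956), and in batch 3 all 12 were below Il10_KO in DKO (median -0.914), while the medians of all tested probe sets in these pairs were -0.0203 and 0.0102. B cell markers other than Ighm went the same way in these pairs: summed over 11 genes they went from 4388.4 in WT to 8854.3 in Ebi3_KO in batch 1, and from 16245.9 in Il10_KO to 10852.4 in DKO in batch 3. In DKO against Il10_KO of batch 2 they did not: the class II median was 0.255, with 7 of 12 above 0, and the B cell sum went from 3136.2 to 2442.1. Ighm went from 13310.4 to 14635.8 in the batch 1 pair. In the batch 3 pair it rose from 20374.1 to 23443.9, where class II fell. The dendritic cell sum went from 371.1 to 679.7 in the batch 1 pair and from 2571.1 to 1980.2 in the batch 3 pair. In DKO against Il10_KO of batch 2 it went from 709 to 712.1. The myeloid sum went from 6596.2 to 6424.3 in the batch 1 pair, where class II rose. It went from 56600.2 to 51474 in the batch 3 pair and from 5714.5 to 8567 in that of batch 2. The part of B cells or of these other cells in the result was not tested, and in bulk RNA fewer cells of a type and less RNA per cell cannot be told apart.

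By the labelled Il10 genotype, class II genes were higher without Il10 without passing the test. The Il10 average difference, Il10_KO and DKO against WT and Ebi3_KO, was above 0 for 11 of the 12 tested probe sets, with a median of 0.737 against 0.0218 for all tested. It passed for 0 of the members, where 4 probe sets (0.0128%) of the whole table passed without batch and 20 (0.064%) with it. At an unadjusted p under 0.05, 2 of the 12 were reached without batch (2.22% of all tested) and 12 of 12 with it (8.62%), 11 of them above 0 where 4.98% of all were. The 12 probe sets read only 6 genes, so they are not independent of each other. All 6 within-batch differences were above 0 for 4 of the 12, against 2.5% of all, on probe sets of Cd74, H2-Aa, H2-Ea and H2-Eb1.

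H2-Aa had the largest Il10 average difference, on 1438858_x_at, with 1989.6, 3259.4 and 5816.8 in WT and 5007.7, 2738.1 and 5677.1 in Ebi3_KO, against 5341.7, 4618.3 and 22643.3 in Il10_KO and 4691.8, 5641.6 and 20210 in DKO. The genotypes overlapped, and the 2 arrays of batch 3 without Il10 stood far above the other 10. The difference was 1.11 ± 0.464 (SE, limma, adjusted p = 1.00 without batch and 0.158 with it). Without array 1 of Ebi3_KO, and with batch, it was 1.34 and passed (limma, adjusted p = 0.0127). That was the only 1 of the omissions with batch to pass, and over them all the adjusted p ranged from 0.0127 to 0.401. The probe sets of H2-Aa differed in size. On the brightest, 1435290_x_at, the Il10 average difference was only 0.39 ± 0.398. In batch 3 it read 17505.6 in WT, above Il10_KO (16629.4) and DKO (14702.9). On 1443783_x_at the difference was 0.81 and on 1452431_s_at 0.98. H2-Eb1, the beta chain of I-E, read 1811.2, 1292.2 and 4304.7 in WT, 3218.5, 1016.9 and 4242.1 in Ebi3_KO, 4452.6, 1328.7 and 13573.5 in Il10_KO and 3310.1, 1752.4 and 7186.2 in DKO. Its difference of 0.76 ± 0.567 did not pass (limma, adjusted p = 0.309 with batch). H2-Ab1, the beta chain of I-A, stood at 0.71 ± 0.683 on its brightest probe set and Cd74 at 0.54 ± 0.499. In the fit without batch these sizes were lowest without array 3 of Il10_KO: H2-Eb1 stood at 0.35, H2-Ab1 at 0.24 and Cd74 at 0.22. That omission also leaves batch 3 unequal between the genotypes, which this fit does not adjust for. With batch in the model the lowest value of H2-Eb1 was 0.58, without the same array. The lowest of H2-Ab1 was then 0.50 and of Cd74 0.41, both without array 1 of WT. H2-Ea, the alpha chain of I-E that some laboratory strains lack, had only dim signals, 2.7 to 201.3 on its 2 tested probe sets, which differed in sign (0.81 and -0.81).

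The median class II difference within batches was 1.30, 0.12 and 1.36 for Il10_KO against WT and 0.05, 0.71 and 0.72 for DKO against Ebi3_KO. Its size changed from batch to batch: batch 1 was high in the first comparison and near 0 in the second, and batch 2 the reverse. The markers of antigen-presenting cells differed along with it in some of the pairs. While the class II median was above 0 in 6 of 6 pairs, the summed myeloid signal was higher without Il10 in 5 of 6, the dendritic cell sum in 5 of 6 and the B cell sum without Ighm in 3 of 6. In batch 2 the myeloid sum went from 8435.5 in WT to 5714.5 in Il10_KO and the B cell sum from 4324.7 to 3136.2, and the B cell sum went from 2842.1 in Ebi3_KO to 2442.1 in DKO. In batch 3 the gap was wide. The 9 myeloid markers summed to 33907.4 and 32490.8 in WT and Ebi3_KO of batch 3 and to 56600.2 and 51474 in Il10_KO and DKO of that batch. Over all batches the myeloid sum spanned 6424.3 to 33907.4 with Il10 and 5714.5 to 56600.2 without it, the B cell sum without Ighm 2842.1 to 12101.2 and 2442.1 to 16245.9, and the dendritic cell sum 371.1 to 1579.4 and 563 to 2571.1. On the log2 scale 8 of the 8 tested myeloid genes were above 0 in the Il10 average (median 0.231). So were 9 of 11 B cell genes without Ighm (median 0.141) and 6 of 7 dendritic cell genes (median 0.330). The lists of other cells leaned the same way, with 6 of 7 Treg and CD4 genes above 0 (median 0.108). For CD8 T and NK cells it was 6 of 7 (0.190), for plasma cells 4 of 5 (0.118) and for neutrophils 4 of 6 (0.194). Of all tested probe sets 53.7% were above 0. Lyz2, a lysozyme of myeloid cells, read 9474.4 to 17798.1 in batch 3 and 551.3 to 1578.4 in the others. Some defining markers were near the floor on all arrays: Pax5, which specifies B cells, read 8.8 to 65.8, Xcr1, of cross-presenting dendritic cells, 16.9 to 49.4, and none was listed at 0. The part of these cells in the class II values was not tested.

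**Figure D5:**
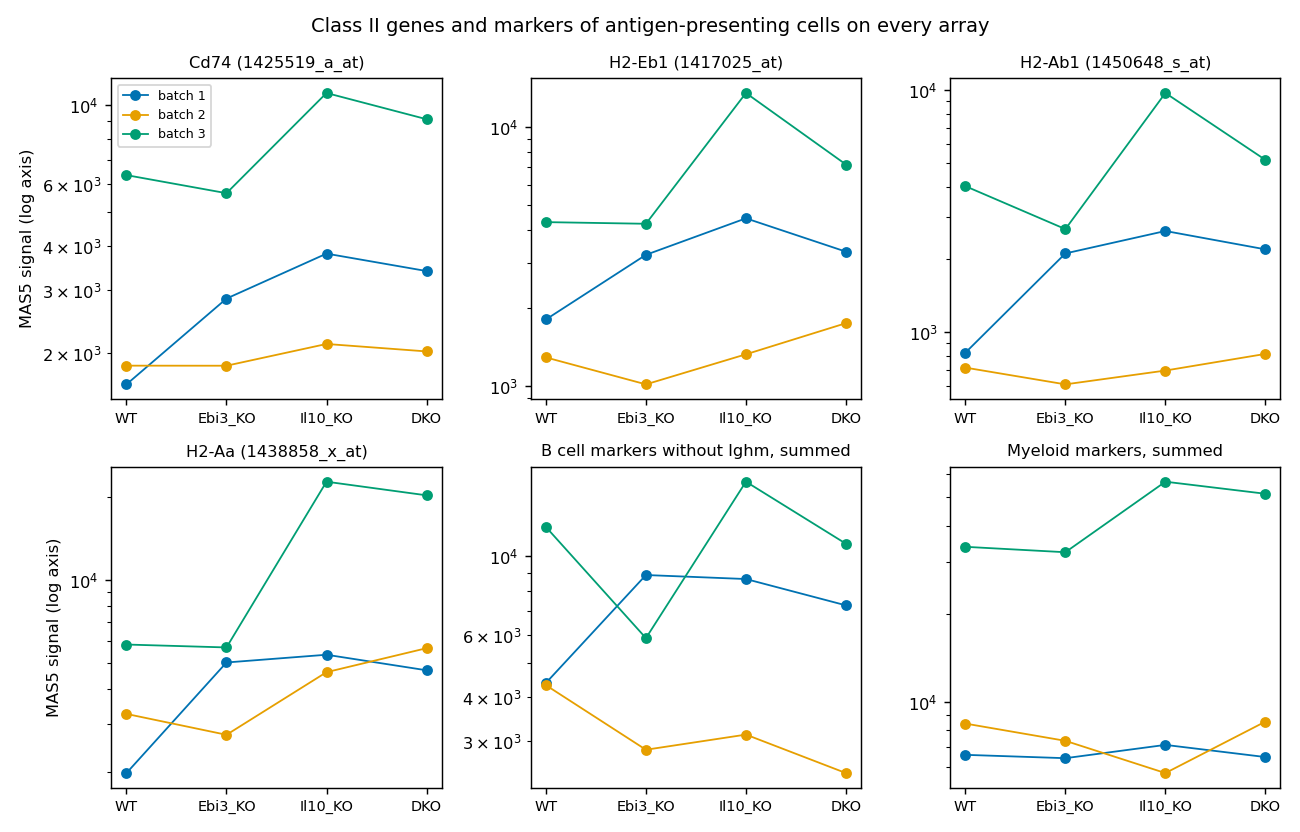
MAS5 signal (log axis) of 4 class II probe sets and the summed signal of B cell and myeloid markers on every array, with the arrays of a batch joined by lines. Batch 3 stands highest for Cd74, H2-Eb1, H2-Ab1, H2-Aa and the myeloid markers on every genotype, and its Il10_KO array is the highest of each panel.

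The peptide editors H2-DM, which exchanges the invariant chain peptide for others, and H2-O, which restrains H2-DM, were tested with 7 probe sets of 4 genes. In the Ebi3 average 6 of 7 were below 0 (median -0.107), in DKO against Il10_KO all 7, and in Ebi3_KO against WT 1. H2-Ob was the brightest and read 1897.9, 1824.9 and 3618.3 in WT, 2878.9, 2555.8 and 2790.6 in Ebi3_KO, 2781, 1936.5 and 3290.2 in Il10_KO and 2652.1, 1936 and 2825.9 in DKO. Its levels overlapped and its difference was 0.07 ± 0.202. H2-DMb2 on 1419744_at had the largest, -0.29 ± 0.427: it read 104, 52.7 and 149.3 in WT, 189.7, 75.9 and 62.9 in Ebi3_KO, 145.5, 55.3 and 400 in Il10_KO and 160.3, 55.4 and 83.8 in DKO. Only 2 of its 6 pairs were below 0, with the batch 3 pairs the lowest. H2-DMa on 1459872_x_at, between 98.2 and 253, had all 6 below 0 (-0.28 ± 0.246), and its other probe set 4 of 6. By labelled Il10 genotype 6 of 7 were above 0, with a median of 0.194.

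Ciita, the master switch of class II transcription, was dim. Its brighter tested probe set read 63.4, 69 and 102 in WT, 94.7, 95.2 and 88.7 in Ebi3_KO, 113.1, 103.5 and 159 in Il10_KO and 103.6, 86.7 and 130.1 in DKO. The Ebi3 average was 0.02 ± 0.205 and the Il10 average 0.36 ± 0.205, neither passing. The other tested probe set read 4.9 to 104.9, with 0.0005 ± 0.430 by Ebi3 genotype. H2-Ke6 carries an H2 symbol for its place in the complex but encodes a hydroxysteroid dehydrogenase. It read 1770.7, 1216.6 and 1556.9 in WT, 1877.9, 1513.7 and 1577.1 in Ebi3_KO, 1704, 1026.6 and 1853.9 in Il10_KO and 1708.1, 969.3 and 1583.1 in DKO, with a difference of 0.02 ± 0.200. All 4 genotypes overlapped.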

How the data were processed

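RNA of 12 Treg samples, 4 genotypes in each of 3 batches, was labelled by a 2-cycle protocol and hybridised to Affymetrix mouse arrays, per the labels' protocols. Per the submitters' processing notes, MAS5 and Partek 6.4 were used. The deposited values are on a natural log scale: the values themselves show ln(MAS5 signal + 20), since 100% of signals below 200 came out as multiples of 0.1 within 0.005, with a trimmed mean of 500 (2% off each end) on every array. They were turned into log2(signal + 20). A probe set was kept where its signal was at or above percentile 40 of the array on 3 or more arrays (31235, with 64 controls and 13802 others left out). All were fitted together with limma 3.58.1 in R 4.3.3 (lmFit, eBayes with trend, 8 residual degrees of freedom, no batch term) with Benjamini-Hochberg adjustment over 31235. The fit was tested on simulated data.

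Gene names come from the platform annotation, for probe sets with 1 symbol. In each role, values on every array are given for the brightest probe set and the one with the largest Ebi3 average difference. Members, lists and motifs were chosen with earlier results of these data known. Replicate numbers equal the labelled batches, which pair the samples: after removing genotype means, same-number arrays correlated at 0.325 to 0.664 (18 pairs) and arrays of different number and genotype at -0.531 to -0.0204. The fit with batch as a block (6 residual degrees of freedom), quantile normalization, no filter, an offset of 1 and leaving out each array were the alternatives. The number of arrays limits the precision.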

Additional observations from a re-analysis of the deposited data

How the results depend on the processing

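None of the 12 member probe set values that were recomputed changed sign under the alternatives, and the class II count by Il10 genotype was 11 under each. For H2-K1, H2-D1, B2m and H2-Aa the probe set recomputed was picked for its large difference in these data, which favours a stable sign. The probe sets of these genes with differences near 0 were not recomputed. With batch as the replicate block the number of probe sets passing in the whole table went from 1 to 2 in the Ebi3 average and from 4 to 20 in the Il10 average, and the block changed no call of a member. With an offset of 1 it was 0 in Ebi3_KO against WT and 0 in DKO against Il10_KO, in place of 1. Leaving out batch 3, an alternative chosen after seeing the data and fitted with the replicate block, gave 14, 2 and 2 in the Ebi3 average, Ebi3_KO against WT and DKO against Il10_KO. Leaving out arrays in turn gave 1 to 12 in the Ebi3 average without batch and 1 to 32 with it, 1 to 3 and 1 to 8 in Ebi3_KO against WT, 1 to 3 and 1 to 16 in DKO against Il10_KO, 2 to 3 and 12 to 33 in the Il10 average, and 0 and 0 to 1 in the interaction. The highest counts by Ebi3 genotype came without array 3 of Ebi3_KO, and in the blocked fit of those arrays H2-M3 (-1.29, limma, adjusted p = 0.00753) and Psmb9 (-0.67, adjusted p = 0.0496) passed. H2-M3 ranged from -1.40 to -0.86 over the omissions without batch and from -1.29 to -0.94 with it, Psmb9 from -0.87 to -0.44 and from -0.70 to -0.58. Other members moved more in the fit without batch than with it: H2-K1 on 1450534_x_at from -0.68 to -0.09 against -0.48 to -0.32, B2m on 1452428_a_at from -0.49 to -0.10 against -0.35 to -0.22, Psmb8 from -0.55 to -0.23 against -0.51 to -0.33, Tap1 from -0.46 to -0.16 against -0.40 to -0.27, and in the Il10 average H2-Eb1 from 0.35 to 1.18 against 0.58 to 0.94, H2-Ab1 from 0.24 to 1.19 against 0.50 to 0.89 and Cd74 from 0.22 to 0.85 against 0.41 to 0.64. The median of the members in the Ebi3 average changed sign: it ranged from -0.287 to 0.00811 without batch, the highest without array 2 of Ebi3_KO, and from -0.201 to -0.0307 with it. The count of probe sets with every pair below 0 was 10 to 12 with an array left out and 13 without batch 3. An omitted array takes its pair with it, so this count covers only the pairs that remain. It could not fall, and it says nothing on stability. Leaving out an array also makes the batches unequal between the genotypes, which the fit without batch does not adjust for. The cause of the changes in the values above was not tested.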
